A study of Homo sapiens with 8 samples.

Results

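Integrins and the proteins that dock to them inside the cell were followed through the loss of SUPT4H1, a subunit of the transcription elongation factor DSIF, in human fibroblasts. The set holds 34 genes, 17 integrin subunits and 17 cytoplasmic proteins of focal adhesions, chosen by gene symbol, and all 34 were found among the 23201 symbols of the deposited tables, each as 1 row. RNA from 2 fibroblast lines, described by the submitters as population control cells, was sequenced after lipid transfection of a non-targeting control siRNA or an siRNA against SUPT4H1. In each line 2 samples received the control siRNA and 2 the siRNA against SUPT4H1, which makes 4 against 4 in all. Nothing states that replicates were grown apart, so p-values measure the spread between these samples only, and 2 lines do not stand for fibroblasts in general. The labels give neither the hours after transfection nor the siRNA sequences.

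Integrins are cell surface receptors made of 1 alpha and 1 beta subunit, which together bind matrix proteins outside the cell. Their short tails recruit adaptor proteins such as talin, kindlins, paxillin and vinculin, which link the receptor to actin filaments and to kinases such as FAK and SRC, and the resulting plaques are the focal adhesions that hold a cultured fibroblast to its substrate. Most alpha subunits of fibroblasts pair with ITGB1, and the alpha chain largely sets which matrix protein is bound.

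Values are FPKM, fragments scaled to transcript length and to the number of mapped fragments, so that levels of different genes can be compared. Changes are log2 differences of FPKM + 1, SUPT4H1 siRNA minus control siRNA, from limma with the line as block, and a gene was called where its p-value adjusted over 11434 genes tested was under 0.05. SUPT4H1 itself stood at 5.46% of its control level in line 1 and 6.3% in line 2 (exact permutation test, p = 0.0286, the smallest that 70 arrangements allow). FPKM summed to 288029 to 305017 per sample over the rows used. All 12 fibroblast markers examined reached a mean of 1 FPKM (VIM was at 2471 FPKM or more and THY1 at 353 or more), while the epithelial markers EPCAM, CDH1 and KRT5 stayed at or under 0.064 FPKM and the endothelial marker PECAM1 at or under 0.017. Of the 12 epithelial markers 2, KRT19 and DSP, reached a mean of 1 FPKM, and the summed level of the list was 2.45 to 10.5 FPKM in control and 2.72 to 16.8 FPKM in SUPT4H1 siRNA samples. None (0 of 8 each) of the endothelial and of the melanocyte or Schwann cell markers did so. Of the 8 leukocyte markers 1, CD68, reached a mean of 1 FPKM, and their sum was 44.3 to 49.0 FPKM in control and 56.5 to 76.7 FPKM in SUPT4H1 siRNA samples, with CD3E and ITGAX listed at 0 throughout. The smooth muscle markers summed to 41.1 to 69.6 FPKM in control and 39.4 to 76.1 FPKM in SUPT4H1 siRNA samples, with 4 of 8 at a mean of 1 FPKM or more. The part of any of these lists in the results was not tested, and in RNA from whole cultures fewer cells of a type cannot be told apart from less RNA per cell.

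The integrin genes covered a wide range of levels. ITGB1, the common beta subunit, was the most abundant in both lines, with control values of 293 and 289 FPKM in line 1 and 451 and 467 FPKM in line 2. ITGA11, the collagen receptor subunit alpha 11 that marks mesenchymal cells, came next, followed in line 1 by ITGA4, ITGB5, ITGA5 and ITGAV and in line 2 by ITGB5, ITGA5, ITGAV and ITGA4. At the low end, ITGA8, ITGA10, ITGB4 and ITGA9 averaged 0.768, 0.244, 0.064 and 0.018 FPKM over all samples, under the mean of 1 FPKM asked for by the test, so that 13 of the 17 integrin genes were tested. ITGB3, at 1.31 FPKM, was the nearest gene above that limit. The median half-width of the deposited interval was 4.15% of the value for ITGB1, 14.9% for ITGA8 and 108% for ITGA9, so that no change of ITGA9 could be detected at this depth. All 17 cytoplasmic genes were tested, with ZYX highest and LPP lowest in both lines.

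Integrin subunits changed in both directions after SUPT4H1 siRNA. Of the 13 tested, 3 rose (ITGA2, ITGB1 and ITGA5) and 5 fell (ITGA11, ITGB8, ITGA7, ITGB5 and ITGA4), against 26.8% of all genes tested that rose and 15.2% that fell. Falls were the larger changes: 4 of the 13 fell by at least 0.25 on the log2 scale, against 5.35% of all genes, and 0 rose by as much, against 7.12%. Across all genes 63.8% of the calls were rises, and 50.1% after scaling by median ratios, so the balance of rises and falls depends on that choice, while the 3 and 5 integrin calls had the same numbers under it.

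**Figure D1:**
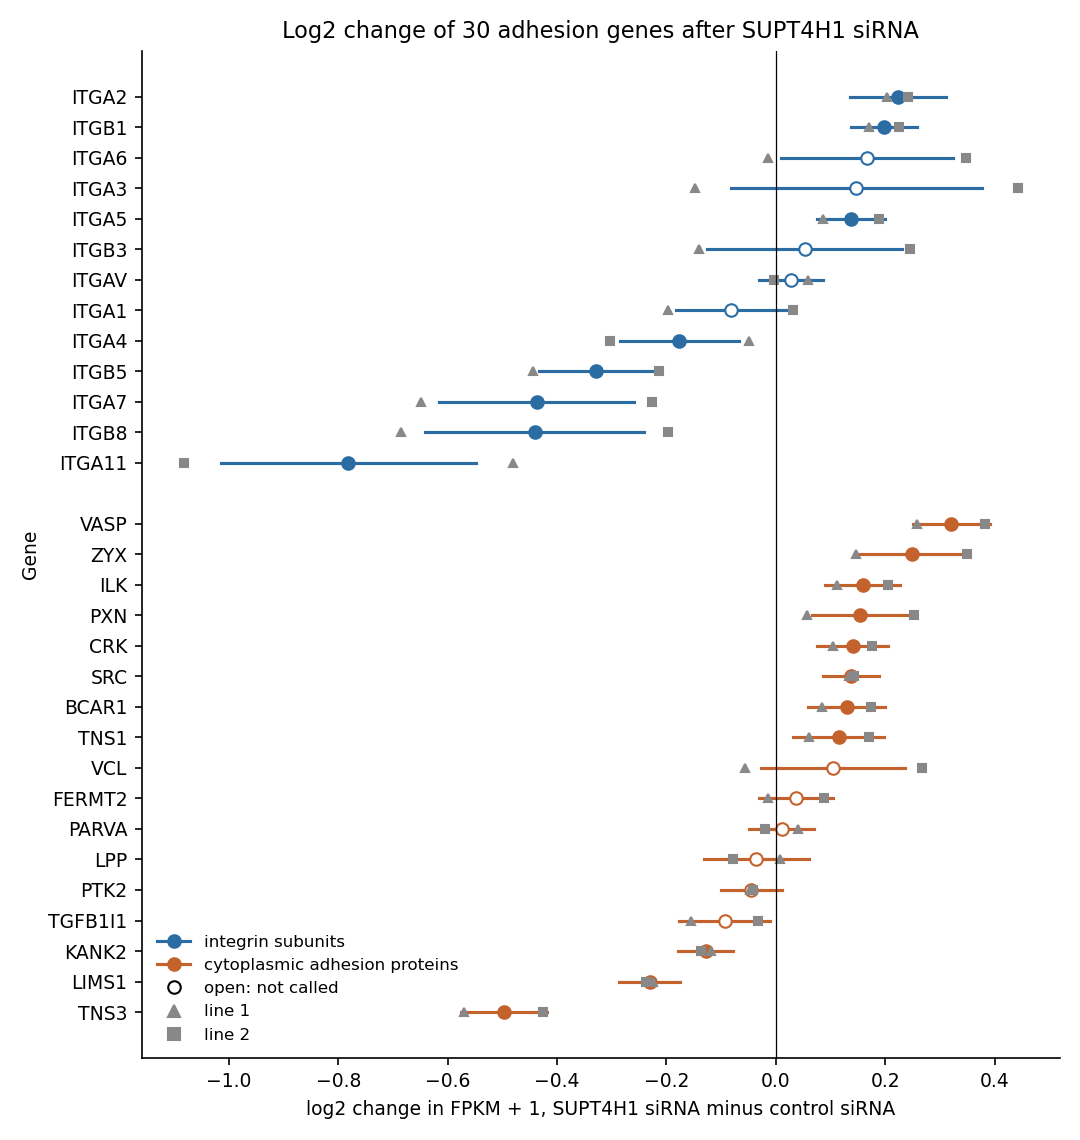
Log2 change in FPKM + 1 (x axis) of the 30 adhesion genes tested (y axis), SUPT4H1 siRNA minus control siRNA, with circles for the estimate over both lines, bars for its 95% confidence interval, filled circles for called genes, and grey triangles and squares for lines 1 and 2 alone. ITGA11 lies lowest at -0.78 and VASP highest at 0.32, and the 8 rises of cytoplasmic genes lie close together between 0.11 and 0.32.

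ITGA11 had the largest change of the set. Line 1 controls held 98.8 and 98.4 FPKM and the knockdown samples 67.4 and 73.5 FPKM, while line 2 held 175.7 and 173.6 FPKM in control and 81.6 and 82.4 FPKM in knockdown samples. Both SUPT4H1 siRNA samples were below both controls in each line, and the gap between the lines seen in control cells was much smaller after knockdown. Over both lines ITGA11 (15:68594042-68724492 in hg19) fell by 0.78 on the log2 scale (SE 0.10, 95% confidence interval -1.01 to -0.55, adjusted p = 4.18e-04), to 71.5% of control in line 1 and 46.9% in line 2.

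ITGB8, which pairs with ITGAV and activates latent TGF-beta, fell by 0.44 (SE 0.09, adjusted p = 0.00376). Its values were 4.64 and 4.81 FPKM in control and 2.66 and 2.46 FPKM in SUPT4H1 siRNA samples of line 1, and 3.98 and 3.68 against 3.17 and 3.25 FPKM in line 2. The samples did not overlap in either line, and the fall was to 54.2% of control in line 1 and to 83.9% in line 2.

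ITGA7, a laminin receptor subunit best known from muscle, likewise fell most in line 1. It went from 16.4 and 16.8 FPKM to 10.4 and 10.0 FPKM there, and from 7.34 and 7.42 to 5.76 and 6.58 FPKM in line 2, without overlap in either. The log2 change was -0.44 (SE 0.08, adjusted p = 0.00219).

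ITGB5, a beta subunit of vitronectin receptors, was among the more abundant genes that fell. Its control values of 69.4 and 70.4 FPKM in line 1 and 96.0 and 101.7 FPKM in line 2 stood against 50.3 and 51.9 FPKM and 84.0 and 86.1 FPKM after SUPT4H1 siRNA (log2 change -0.33, SE 0.05, adjusted p = 5.62e-04). Again no SUPT4H1 siRNA sample reached the controls of its line. ITGA4, whose product binds fibronectin and VCAM1, fell by 0.18 over both lines (adjusted p = 0.0173), and this call was lost without either SUPT4H1 siRNA sample of line 2 (adjusted p = 0.0537 and 0.0541). In line 2 ITGA4 went from 31.6 and 33.4 to 26.3 and 26.0 FPKM, and in line 1 from 74.9 and 75.7 to 73.2 and 72.3 FPKM, a difference of -0.05 that did not pass (adjusted p = 0.279).

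ITGA8, a receptor subunit for matrix proteins with the RGD motif, was too low for the main test but lay lower after knockdown in both lines. It stood at 0.77 and 0.84 FPKM in control and 0.53 and 0.51 FPKM in SUPT4H1 siRNA samples of line 1, and at 1.22 and 1.22 against 0.50 and 0.56 FPKM in line 2. With no filter on FPKM it had a log2 change of -0.39 and passed (adjusted p = 0.00466), while ITGA9, ITGA10 and ITGB4 did not pass under that setting (adjusted p = 0.40 to 0.978).

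For the 3 integrin rises the difference between the lines did not pass (adjusted p = 0.13 to 0.823). ITGB1 went from 293 and 289 to 328 and 327 FPKM in line 1 and from 451 and 467 to 534 and 539 FPKM in line 2, a log2 change of 0.20 (SE 0.03, adjusted p = 4.93e-04). ITGA2, a collagen receptor subunit of low level here, rose from 2.24 to 2.73 FPKM in the means of line 1 and from 1.37 to 1.81 FPKM in line 2 (log2 change 0.22, SE 0.04, adjusted p = 0.00183). ITGA5, the fibronectin receptor subunit, rose from 56.2 to 59.7 FPKM and from 79.0 to 90.2 FPKM (log2 change 0.14, SE 0.03, adjusted p = 0.00377). In all 3 genes the siRNA groups did not overlap in either line. Such an ordering in both lines was seen upwards in 28.8% and downwards in 16.6% of all genes tested.

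The remaining 5 integrin genes tested did not pass over both lines. ITGAV, the alpha subunit of vitronectin receptors, stood at 47.2 and 49.2 FPKM in the means of line 1 and at 54.9 and 54.8 FPKM in line 2, a log2 difference of 0.03 with a 95% confidence interval of -0.03 to 0.09 (adjusted p = 0.423). The other 4, ITGA1, ITGA3, ITGA6 and ITGB3, had adjusted p of 0.166, 0.275, 0.0824 and 0.624, and all 4 responded differently in the 2 lines. ITGA6 passed without SUPT4H1 line 1 replicate 2 (adjusted p = 0.0324).

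**Figure D2:**
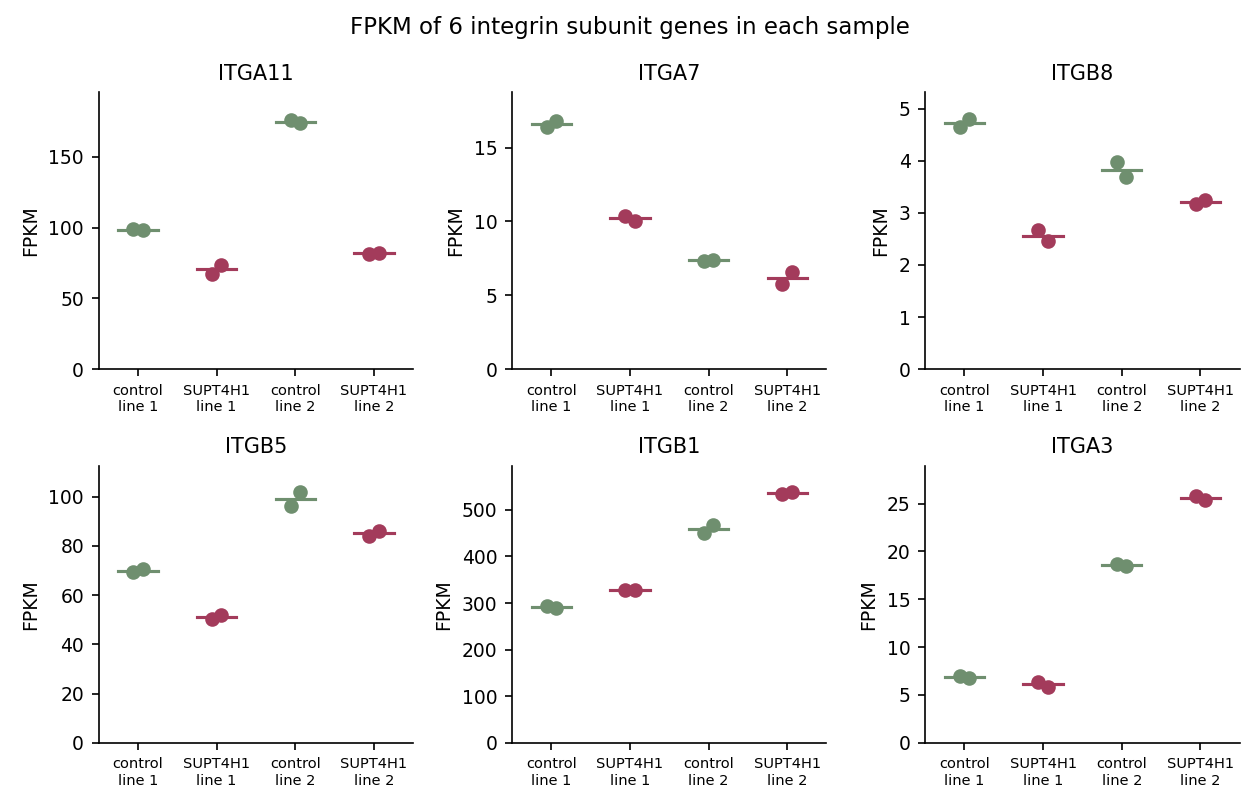
FPKM (y axis, from 0) of 6 integrin subunit genes in each of the 8 samples, by siRNA and line (x axis), with points for samples and short lines for the mean of 2. In ITGA11, ITGA7, ITGB8 and ITGB5 the SUPT4H1 siRNA samples lie under the controls of their line, in ITGB1 they lie above, and in ITGA3 they lie slightly below in line 1 and above in line 2.

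The alpha subunits were also sorted by the ligand they are known to bind, a grouping made after the values were seen. The summed level of ITGA1, ITGA2, ITGA10 and ITGA11 was 110.6 and 110.5 FPKM in line 1 controls and 78.6 and 84.6 FPKM with SUPT4H1 depleted, and 199.1 and 196.5 against 105.5 and 106.6 FPKM in line 2. Their share of the FPKM of all 12 alpha subunits measured went from 35.1% to 29.0% in line 1 and from 50% to 33.6% in line 2 in the means of 2 samples. Without ITGA11 the mean of the collagen class stood at 11.95 FPKM in control and 11.1 FPKM in knockdown samples of line 1 and at 23.1 and 24.1 FPKM in line 2. ITGA11 held 31.3% of the alpha subunit FPKM in control and 25.0% in knockdown samples of line 1, and 44.1% and 26.0% in line 2.

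The subunits that bind RGD sites, ITGA5, ITGA8 and ITGAV, summed to 104.2 and 109.4 FPKM in line 1 and to 135.1 and 145.5 FPKM in line 2. Their share went from 33.1% to 38.8% in line 1 and from 34.1% to 46.2% in line 2, over a total that held less ITGA11. Summed laminin receptor subunits, ITGA3, ITGA6 and ITGA7, went from 25.1 to 17.9 FPKM in line 1 and from 30.3 to 37.5 FPKM in line 2, in opposite directions. All 12 alpha subunits together stood at 315 and 282 FPKM in line 1 and at 396 and 315 FPKM in line 2, while the 5 beta subunits stood at 367 and 382 FPKM and at 563 and 627 FPKM. These sums were described and not tested, since their members were chosen with results known.

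**Figure D3:**
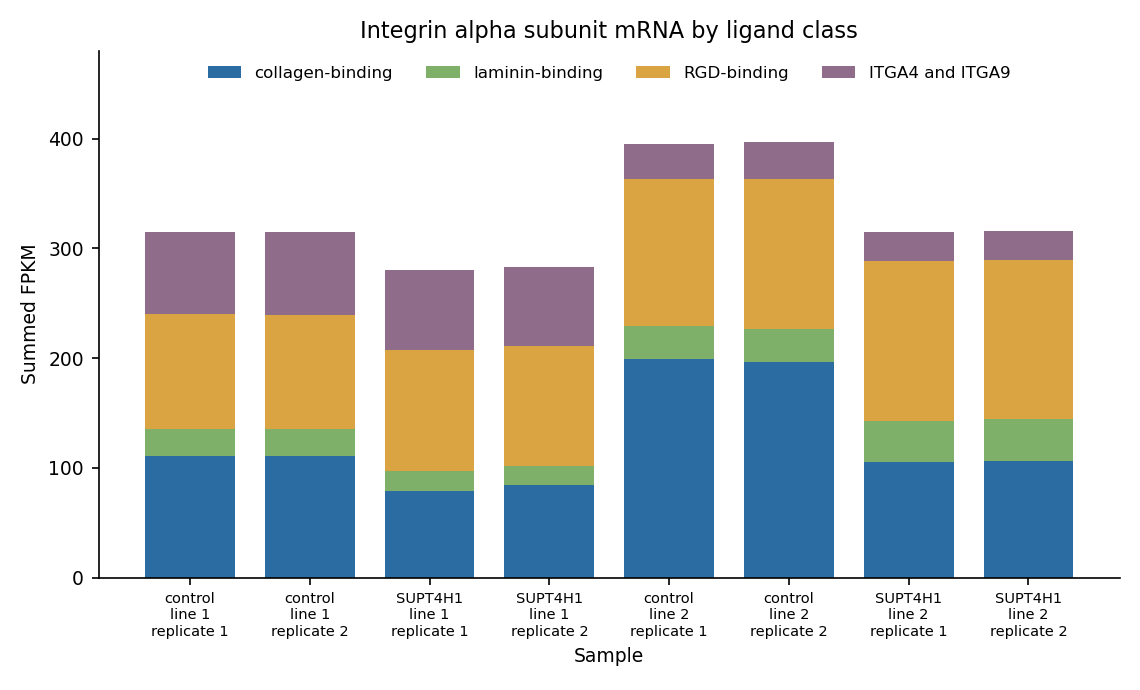
Summed FPKM (y axis, from 0) of the 12 integrin alpha subunit genes in each sample (x axis), stacked by the ligand class of the subunit. The collagen-binding part shrinks from 110.6 and 110.5 to 78.6 and 84.6 FPKM in line 1 and from 199.1 and 196.5 to 105.5 and 106.6 FPKM in line 2.

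All 17 cytoplasmic adhesion genes were tested, and their changes ran from -0.50 to 0.32. Of these, 8 rose (VASP, ZYX, ILK, PXN, CRK, SRC, BCAR1 and TNS1), 3 fell (TNS3, LIMS1 and KANK2) and 6 were not called, against the 26.8% and 15.2% of all genes. After scaling by median ratios the falls numbered 5, with PTK2 and TGFB1I1 added. VASP and TNS3 changed by 0.25 or more, with ZYX at 0.248 just under, and over all genes 12.5% were called at that size.

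TNS3, tensin 3, an adaptor that ties integrin tails to actin, had the lowest p-value of all members. Its control values were 18.3 and 19.0 FPKM for line 1 and 18.1 and 18.7 FPKM for line 2, so that the lines had nearly the same level. With the SUPT4H1 siRNA they were 12.3 and 12.1 FPKM in line 1 and 13.3 and 13.6 FPKM in line 2, well below every control sample. The log2 change was -0.50 (SE 0.03, 95% confidence interval -0.58 to -0.42, adjusted p = 1.31e-05), and TNS3 (7:47314752-47621742 in hg19) was also called with no term for the line (adjusted p = 0.0021).

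Tensin 1 went the other way in value: TNS1 rose by 0.11 (adjusted p = 0.0322), with 15.5 and 15.1 against 16.8 and 15.2 FPKM in line 1, where the samples overlapped, and 15.5 and 15.2 against 17.6 and 17.1 FPKM in line 2. This call was lost without any 1 of 6 of the 8 samples (adjusted p = 0.0574 to 0.0938) and after scaling (0.108). Those 6 were control line 1 replicate 2, SUPT4H1 line 1 replicate 1 and all 4 samples of line 2.

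The 3 partners of the complex of ILK, PINCH and parvin, which binds integrin beta tails and actin, did not move together. ILK, the scaffold of the complex, rose from 51.3 and 51.6 to 56.3 and 55.0 FPKM in line 1 and from 62.8 and 67.0 to 73.7 and 76.0 FPKM in line 2 (log2 change 0.16, SE 0.03, adjusted p = 0.00319). LIMS1, which encodes PINCH, fell from 13.9 and 14.3 to 12.1 and 11.8 FPKM and from 15.6 and 15.5 to 13.3 and 12.8 FPKM (log2 change -0.23, SE 0.02, adjusted p = 1.39e-04). PARVA, alpha parvin, differed by 0.01 with a 95% confidence interval of -0.05 to 0.07 (adjusted p = 0.782). LIMS1 has near-identical gene copies, and how the counting treated reads they share is not given, so its level is uncertain.

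Among the proteins that act on actin at adhesions, VASP and ZYX rose. VASP, which promotes actin filament growth, went from 16.7 and 16.5 to 20.6 and 19.6 FPKM in line 1 and from 26.0 and 26.0 to 34.1 and 34.4 FPKM in line 2, the largest rise of the set (log2 change 0.32, SE 0.03, adjusted p = 8.42e-05). ZYX, zyxin, which recruits VASP to stress fibres under tension, went from 101.9 and 105.9 to 117.1 and 113.2 FPKM in line 1 and from 125.6 and 129.2 to 163.0 and 162.1 FPKM in line 2 (log2 change 0.25, SE 0.04, adjusted p = 0.00152). In both genes the siRNA groups were apart in each line. Of the relatives of VASP, named here after their values were seen, EVL fell by 0.12 (adjusted p = 0.0113), and ENAH differed by 0.04 (adjusted p = 0.433).

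Among the signalling adaptors and kinases, PXN, the scaffold paxillin, rose by 0.15 (adjusted p = 0.0118), CRK by 0.14 (0.00421), BCAR1, the docking protein p130Cas that binds CRK, by 0.13 (0.01), and the kinase SRC by 0.14 (0.0014). PTK2, which encodes the focal adhesion kinase FAK, stood at 13.7 and 13.3 FPKM over both lines, a difference of -0.04 that did not pass (adjusted p = 0.172, and 0.029 after scaling by median ratios). KANK2, a protein of the rim of adhesions that binds talin, fell by 0.13 (adjusted p = 0.00183), from 45.4 to 41.8 FPKM in line 1 and from 48.1 to 43.6 FPKM in line 2.

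The other genes of this class were not called. VCL, vinculin, which reinforces the bond between talin and actin, had a log2 difference of 0.10 (adjusted p = 0.178) that hid unequal values in the 2 lines. FERMT2, the kindlin of fibroblasts, which activates integrins through the beta tail, differed by 0.04 (95% confidence interval -0.03 to 0.10, adjusted p = 0.358), and LPP, a relative of zyxin, by -0.04 (-0.13 to 0.06, adjusted p = 0.538). TGFB1I1, the paxillin relative Hic-5, differed by -0.09 (adjusted p = 0.0658), and passed without control line 2 replicate 1 (adjusted p = 0.00636) and after scaling (0.0111).

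**Figure D4:**
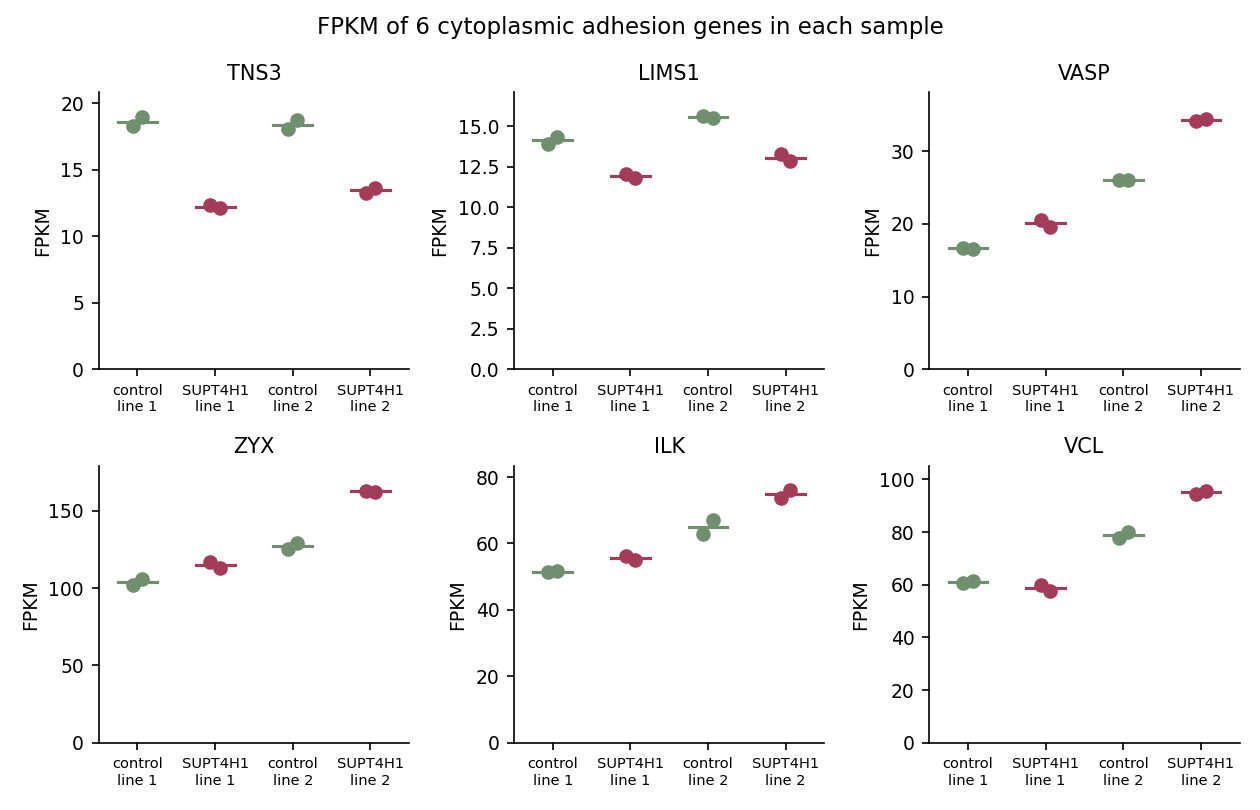
FPKM (y axis, from 0) of 6 cytoplasmic adhesion genes in each of the 8 samples, by siRNA and line (x axis), with points for samples and short lines for the mean of 2. TNS3 and LIMS1 lie lower after SUPT4H1 siRNA in both lines, VASP, ZYX and ILK lie higher, and VCL lies higher in line 2 and slightly lower in line 1.

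Start-site windows of 3 of these genes are given to show the sequence around genes that moved in opposite directions: ITGA11, the largest fall, and VASP and ZYX, the largest rises of their class. They come from RefSeq (GRCh38.p14), which had such windows for 26 of the 34 genes, and run from 250 bases before to 50 after the start, 5′ to 3′ on the gene's strand, with matches to the motifs searched in capitals.
ITGA11: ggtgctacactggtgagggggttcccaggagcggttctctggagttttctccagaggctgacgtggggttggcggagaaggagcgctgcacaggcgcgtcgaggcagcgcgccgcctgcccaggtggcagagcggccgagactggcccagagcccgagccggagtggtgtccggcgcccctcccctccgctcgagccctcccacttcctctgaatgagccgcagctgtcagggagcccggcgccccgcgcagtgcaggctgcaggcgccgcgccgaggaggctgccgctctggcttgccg
VASP: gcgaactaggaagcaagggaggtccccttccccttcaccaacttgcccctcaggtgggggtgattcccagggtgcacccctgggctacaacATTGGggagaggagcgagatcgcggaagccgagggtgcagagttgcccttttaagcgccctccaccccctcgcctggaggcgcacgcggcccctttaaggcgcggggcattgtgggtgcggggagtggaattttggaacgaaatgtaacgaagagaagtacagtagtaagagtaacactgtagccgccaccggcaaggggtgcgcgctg
ZYX: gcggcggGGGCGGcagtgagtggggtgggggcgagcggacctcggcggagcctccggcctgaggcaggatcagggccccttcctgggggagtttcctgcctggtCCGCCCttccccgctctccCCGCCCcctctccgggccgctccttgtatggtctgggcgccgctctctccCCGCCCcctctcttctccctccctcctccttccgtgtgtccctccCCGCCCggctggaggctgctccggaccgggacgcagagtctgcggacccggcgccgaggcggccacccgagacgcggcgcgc
The windows lie at chr15:68432114-68432413 (minus strand), chr19:45507229-45507528 (plus strand) and chr7:143381095-143381394 (plus strand). Both strands were searched for GGGCGG, the GC box of SP1, which 45% of all 35116 windows of the table hold. The box CCAAT is in 34.6% and the AP-1 site, written TGANTCA, in 7.71%. The TEAD core GGAATG is in 14% and the CArG box of serum response factor in 1.29%. The ZYX window holds 5 matches to GGGCGG, the VASP window 1 to CCAAT, and the ITGA11 window 0 to any of the 5, with 0 overlapping matches. Over the windows of genes that rose, 14 of 20 held GGGCGG, against 7 of 14 for genes that fell, where several windows belong to the same gene. Of the 53 member windows used, 58.5% held it. In the same 20 and 14 windows CCAAT was in 4 and 3, the AP-1 site in 2 and 1, the TEAD core in 5 and 0, and the CArG box in 0 and 0. These counts were not tested. These are matches of letters and no evidence of binding.

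Integrin subunits and cytoplasmic adhesion genes were then set side by side. Called were 61.5% of the 13 integrin genes and 64.7% of the 17 cytoplasmic genes, against 42.1% of all genes tested. Of the integrin genes 23.1% rose and 38.5% fell, while 47.1% of the cytoplasmic genes rose and 17.6% fell. After scaling by median ratios 3 integrin genes rose and 5 fell, and 7 cytoplasmic genes rose and 5 fell. Over all genes 2320 then rose and 2309 fell, so the contrast was narrower under that setting. The median log2 change was 0.03 for integrins and 0.10 for cytoplasmic genes, beside 0.03 for all genes. The integrin median was -0.007 after scaling, -0.083 for genes of at least 5 FPKM and -0.013 without control line 2 replicate 2. The cytoplasmic median was 0.07 after scaling, beside 0.0006 for all genes. The median absolute change was 0.18 for integrins, 0.13 for cytoplasmic genes and 0.09 for all genes. These values describe the members and were not tested.

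Most calls in both classes rest on the term for the line. With no replicate block, as the series groups its samples, 0 integrin genes rose and 1, ITGB8, fell (adjusted p = 0.0433), and 0 cytoplasmic genes rose and 1, TNS3, fell, while 408 genes rose and 204 fell in all. The other 17 calls had adjusted p of 0.0517, for LIMS1, to 0.898, for ITGA4, in that fit.

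The siRNA response differed between the lines for 12 of the 30 members by a test of the difference itself, 9 integrin and 3 cytoplasmic genes, against 9.88% of all genes. ITGA3, a laminin receptor subunit, moved in opposite directions. It fell from 6.98 and 6.74 to 6.37 and 5.83 FPKM in line 1 (log2 change -0.15, adjusted p = 0.0228) and rose from 18.7 and 18.5 to 25.8 and 25.4 FPKM in line 2 (0.44, adjusted p = 2.67e-05), a difference of 0.59 (SE 0.06, adjusted p = 3.48e-04). No siRNA sample overlapped the controls of its line.

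VCL and ITGA6 rose in line 2 and did not pass in line 1. VCL went from 77.6 and 80.1 to 94.5 and 95.6 FPKM in line 2 (log2 change 0.27, adjusted p = 9.67e-05) and from 60.6 and 61.5 to 59.9 and 57.5 FPKM in line 1 (adjusted p = 0.193), and the difference of 0.32 passed (adjusted p = 0.00149). ITGA6, a laminin receptor subunit, rose from 4.36 and 4.19 to 5.57 and 5.86 FPKM in line 2 (adjusted p = 4.99e-04), and stood at 1.62 and 1.66 against 1.68 and 1.54 FPKM in line 1. The difference was 0.36 (adjusted p = 0.0134).

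ITGA1, a receptor subunit for collagen and laminin, showed the converse. It fell in line 1 from 9.47 and 9.65 to 8.21 and 8.20 FPKM (log2 change -0.20, adjusted p = 0.00148) and stood at 21.8 and 21.1 against 21.9 and 22.0 FPKM in line 2 (adjusted p = 0.457). ITGB3, a beta subunit that pairs with ITGAV, stood at 0.73 and 0.69 against 0.58 and 0.53 FPKM in line 1 and rose in line 2 from 1.87 and 1.61 to 2.18 and 2.31 FPKM (adjusted p = 0.0146).

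The other 7 genes differed in size and not in sign. ITGA11 and ITGA4 fell more in line 2, by 0.60 and 0.25 on the log2 scale, and ITGA7, ITGB8 and ITGB5 fell more in line 1, while PXN and ZYX had the higher change in line 2. Of the 12 differences, 10 were higher in line 2 than in line 1. Over all genes tested, 617 of the 1130 such differences were higher in line 2. In the lists of other adhesion genes and of ligand genes described below, 11 of 11 and 3 of 12 were. By line, 8 members rose and 10 fell in line 1, where 19% of all genes rose and 11.7% fell, and 15 rose and 8 fell in line 2, where 27% rose and 15.9% fell. Across the 30 members the changes in the 2 lines had a Pearson correlation of 0.68, beside 0.68 across all genes, a description of points that share their libraries.

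**Figure D5:**
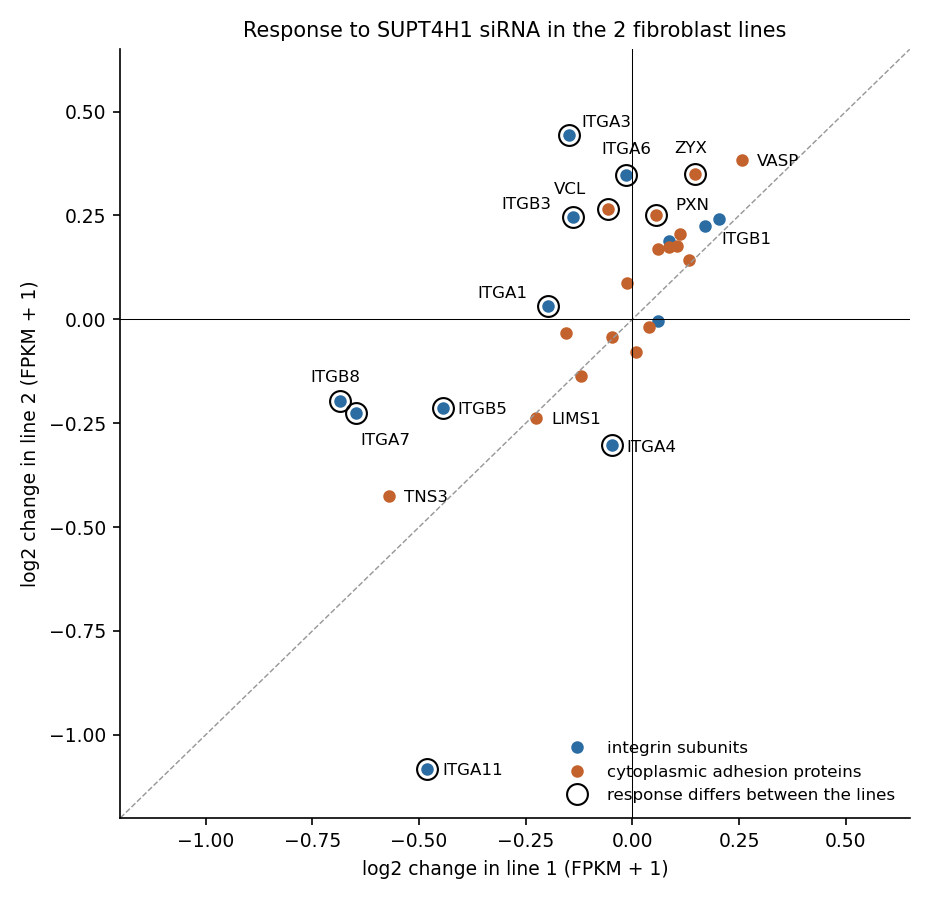
Log2 change of FPKM + 1 after SUPT4H1 siRNA in line 1 (x axis) and in line 2 (y axis) for the 30 members tested, with rings around the 12 whose response differed between the lines and a dashed line of equal change. Of the ringed genes 10 lie above the dashed line, and ITGA11 and ITGA4 lie below it. Over all genes tested, 617 of 1130 such differences were higher in line 2.

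The levels of the members also set the lines apart. Over all 8 samples, control and knockdown together with the siRNA in the fit, the level differed for 25 of the 30 members. This was so for 65.7% of all genes tested. It was higher in line 2 for 21 and in line 1 for 4, where 27.7% and 38% of all genes were. ITGA3 was 2.71 times and ITGA1 2.24 times as high in the control samples of line 2 as in those of line 1, while ITGA4 was 2.32 times and ITGA7 2.25 times as high in line 1. In the fit over all samples, the median absolute log2 difference between the lines was 0.68 for integrins, 0.18 for cytoplasmic genes and 0.16 for all genes. This compares 2 lines and says nothing of what sets them apart.

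Other adhesion genes were taken from a list of 82. Of the 64 tested, 26 rose (40.6%) and 14 fell (21.9%), against 26.8% and 15.2% of all genes tested, with a median log2 change of 0.06 beside 0.03 for all genes. Without control line 1 replicate 2 the falls in this list numbered 9. The 6 called genes of largest change are given here. NEDD9, a docking protein related to BCAR1, fell from 7.08 to 4.38 FPKM in line 1 and from 6.80 to 4.59 FPKM in line 2 (log2 change -0.53, adjusted p = 2.1e-05). PDLIM5, an actin-binding protein, rose by 0.46 (adjusted p = 0.00429). KANK1, a relative of KANK2, rose from 5.67 to 8.25 FPKM and from 6.74 to 9.34 FPKM (0.44, adjusted p = 1.9e-05), and LIMS2, the second PINCH gene, from 9.43 to 11.9 FPKM and from 17.9 to 26.4 FPKM (0.42, adjusted p = 1.46e-04). The kinase PAK1 rose by 0.31 (adjusted p = 0.00114), and PALLD, palladin, which organises actin bundles, fell by 0.31 (3.57e-04). The leukocyte and epithelial integrin genes ITGB2, ITGAM, ITGAX and ITGB6 were under 1 FPKM on average and were not tested. ITGB2 had means of 0.074 FPKM in control and 0.132 FPKM in SUPT4H1 siRNA samples of line 1, and 1.09 and 1.33 FPKM in line 2. ITGAE, an integrin gene of the same list, was tested, at 1.71 FPKM in control and 1.73 FPKM in SUPT4H1 siRNA samples. It was not called (adjusted p = 0.913).

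In 2 gene pairs of like function the members thus moved apart: LIMS1 fell while LIMS2 rose, and KANK2 fell while KANK1 rose. In control cells LIMS1 was the higher of its pair in line 1, at 14.1 against 9.43 FPKM, and LIMS2 in line 2, at 17.9 against 15.6 FPKM. KANK2 was the higher of its pair throughout.

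Of the integrin ligand genes, 29 from a list of 40 were tested. Of these, 17 fell (58.6%) and 7 rose (24.1%), against 15.2% and 26.8% of all genes tested, with a median log2 change of -0.13 beside 0.03 for all genes (4 rose after scaling). The 6 called genes of largest change were TNC, COMP, LTBP1, CTGF, THBS1 and POSTN, and all 6 fell, by 0.75 to 1.30 on the log2 scale (adjusted p = 5.62e-07 to 5.28e-04). COMP, a cartilage and tendon matrix protein, went from 57.6 to 35.4 FPKM in line 1 and from 10.1 to 4.44 FPKM in line 2, and POSTN, periostin, from 430 to 315 FPKM and from 322 to 155 FPKM. FN1, COL1A1 and COL1A2 did not have status OK in all samples and were not tested. Each was listed at 0 in all 4 control samples. In SUPT4H1 siRNA samples of line 1 and line 2, COL1A1 was listed at 3884 and 3996 and at 3382 and 3387 FPKM. COL1A2 was listed at 0 and 4783 and at 4573 and 4669 FPKM, and FN1 at 2308 and 2168 FPKM and at 0 and 0. Given that status, a 0 here cannot be read as absence of the mRNA, and changes of these genes could not be assessed. LAMA2 likewise lacked status OK in all samples and was not tested, at a mean of 13.3 FPKM in control and 11.8 FPKM in SUPT4H1 siRNA samples.

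Gene span was compared with the changes as a description. The tested members span from 5.81 kb for TGFB1I1 to 737 kb for LPP in hg19, with a median of 79.9 kb, against 27.3 kb for all genes tested. Of the 11 members that span 100 kb or more, 4 fell and 2 rose, and of the 19 shorter ones 4 fell and 9 rose. The background was 415 rises and 390 falls among 1864 genes of at least that span, and 2655 rises and 1353 falls among 9570 shorter genes. Spearman's correlation between log2 change and span was -0.46 across the 30 members and -0.05 across all genes tested, where genes share the same libraries. LPP, the longest, was not called, and ITGA7, which spans 27.7 kb, was among the larger falls.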

How the data were processed

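RNA sequencing tables of 8 samples (4 control siRNA, 4 SUPT4H1 siRNA, 2 lines) were used. The authors deposited FPKM with interval bounds and a status per gene, in 27032 rows per sample, per the file headers. The submitters' processing notes name hg19. Sources used here do not give aligner, quantifier, annotation or strandedness. Reads of a gene and an antisense partner therefore cannot be told apart, and the number of fragments is unknown. FPKM are relative, so a rise of a few abundant transcripts lowers the rest.

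Tables were joined by symbol and position. Rows spanning up to 200 bases (2142), mostly small RNAs, and rows of the Y chromosome (164) were left out. That choice was made after the data were seen. Rows of one symbol were summed. Genes with a mean FPKM of at least 1 and status OK in all samples were tested (11434). limma 3.58.1 in R 4.3.3 was fitted to log2(FPKM + 1), which understates changes of low genes, with the siRNA and the line as replicate block, a mean-variance trend and Benjamini-Hochberg adjustment, 2-sided, threshold 0.05 (5 residual degrees of freedom). Responses per line and their difference came from a fit of 4 group means (4 degrees of freedom). The fit was tested on simulated data. Python 3.11.15, pandas 2.3.3 and matplotlib 3.10.9 made tables and plots.

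The line pairs the groups because its samples share their cells. Deviations from the siRNA group means correlated at 0.876 to 0.893 within a line and at -0.891 to -0.877 between the lines. As each mean is taken over both lines, these values largely restate that the lines differ and are no separate support for the pairing. The SD of the log2 ratio was 0.088 to 0.094 between replicates, 0.194 to 0.235 between siRNAs within a line and 0.404 to 0.482 between lines, and replicates shared at most 2 identical values.

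Members and lists were chosen with earlier results of these data known. Every member is named. Values in every sample were set to be given for called members with a log2 change of at least 0.25 in size, and up to 6 called genes per further list are named by size. Per-sample values of other members, the ligand classes of alpha subunits, the span limit of 100 kb, the 5 motifs and the pairs of like genes were chosen after values were seen. Alternatives were no replicate block, line and number as block, a pseudocount of 0.1, no filter or a mean of at least 5 FPKM, median-ratio scaling, no trend, symbols with several rows left out, each sample left out and, added after seeing the data, the short and Y chromosome rows kept.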

Additional observations from a re-analysis of the deposited data

Results flagged for a closer look

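In 12 of the 30 members the test of the difference between the lines in the siRNA response passed (line 2 minus line 1, limma, log2 scale). The difference was 0.591 for ITGA3 (adjusted p = 3.48e-04), -0.602 for ITGA11 (1.61e-04), 0.323 for VCL (0.00149), 0.488 for ITGB8 (0.00296), 0.422 for ITGA7 (0.0062) and -0.255 for ITGA4 (0.00683), and these 6 calls were kept when any 1 sample was left out.

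The other 6 lost their call without some of the samples. ITGA1, at 0.229 (adjusted p = 0.0131), lost it without control line 1 replicate 2 (0.0565) or SUPT4H1 line 2 replicate 2 (0.0509). ITGA6, at 0.361 (0.0134), lost it without SUPT4H1 line 1 replicate 2 (0.0506) or SUPT4H1 line 2 replicate 2 (0.0557). PXN, at 0.196 (0.0136), lost it without control line 1 replicate 1 (0.0585) or SUPT4H1 line 2 replicate 1 (0.0604). ITGB5, at 0.231 (0.0148), lost it without control line 1 replicate 2 (0.0586), SUPT4H1 line 1 replicate 1 (0.0525) or SUPT4H1 line 2 replicate 2 (0.0596), and with no filter on FPKM (0.0575). ZYX, at 0.203 (0.0182), lost it without control line 1 replicate 2 (0.0775), SUPT4H1 line 1 replicate 2 (0.0692) or either SUPT4H1 sample of line 2 (0.0647 and 0.0559), with no filter (0.0568) and with no mean-variance trend (0.0582). ITGB3, at 0.385 (0.0321), lost it without any 1 sample except control line 2 replicate 1 (0.0545 to 0.101), and with no filter (0.0668).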

How the results depend on the processing

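With no replicate block, 0 integrin genes rose and 1 fell, 0 cytoplasmic genes rose and 1 fell, 1 other adhesion gene rose and 2 fell, 2 ligand genes rose and 5 fell, and 408 genes rose and 204 fell in all. Scaling by median ratios gave 5 cytoplasmic falls and 4 ligand rises, 2320 rises and 2309 falls in all, and values of -0.007 for ITGAV and -0.024 for PARVA, which were above 0 and not called without it. The integrin median was -0.083 for genes of at least 5 FPKM, where 3 integrin genes rose in line 2 and 6 integrin genes differed between the lines. That limit left ITGA2, ITGA6, ITGB3 and ITGB8 untested. The 26 members still tested had the same calls over both lines, and the 9 differences between the lines still tested were kept. Cytoplasmic rises in line 1 numbered 3 with no filter, after scaling or with no trend, against 5. Same-numbered samples of a line correlated at 0.103 and 0.05 in their deviations, and with line and number as replicate block 2591 genes rose and 1446 fell, with the same calls in all 30 members.

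Leaving out 1 sample gave 9 to 13 falls of other adhesion genes. In line 1 it gave 1 to 3 integrin rises (1 without either control of line 1 or SUPT4H1 line 1 replicate 1), 1 to 5 cytoplasmic rises (1 or 2 without those) and 2 to 4 cytoplasmic falls (2 without control line 1 replicate 2 or SUPT4H1 line 1 replicate 2). Differences between the lines numbered 5 to 9 integrin genes (5 without SUPT4H1 line 2 replicate 2) and 1 to 4 cytoplasmic genes (1 without SUPT4H1 line 2 replicate 1). The log2 change of ITGB3 was -0.013 to 0.102. No filter on FPKM ended the calls of ITGA4 (adjusted p = 0.0505) and TNS1 (0.0633). Depth limits the low genes most, since the deposited interval was 28.6% of the value in half-width for ITGA10 and 57.9% for ITGB4.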
